A study of Mus musculus with 12 samples.

Results

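The genes examined were Cspg4, Sdc1, Sdc3, Sdc4, Cd44, Srgn, Vcan and Hspg2, which encode proteoglycans of the cell surface and related core proteins. They were taken by symbol from the deposited expression table: 8 of 8 symbols were found among 14541 listed genes, and all 8 were among the 11242 genes tested. Cspg4 had been selected on its FPKM, because it was higher in these same Hevin libraries than in Media, so its values in Hevin are given as a description with no test. The name of the set fits only some of its members. Cspg4, Sdc1, Sdc3 and Sdc4 encode membrane proteoglycans and Cd44 a membrane glycoprotein that carries such chains only in some forms. Srgn encodes the proteoglycan of secretory granules, and Vcan and Hspg2 encode proteoglycans secreted into the extracellular matrix.

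A proteoglycan is a core protein that bears long sulfated sugar chains of the chondroitin, dermatan or heparan sulfate type. The chains are built in the Golgi on a shared linker sugar, and they bind growth factors, chemokines, matrix proteins and adhesion receptors. Syndecans act as co-receptors through heparan sulfate, CD44 is the main receptor for hyaluronan, and membrane core proteins can be cut off the cell by proteases. In the brain, Cspg4 (the NG2 proteoglycan) is best known as a marker of oligodendrocyte precursors and pericytes, and microglia can also make it.

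The libraries came from wild-type mouse pups aged 7 to 9 postnatal days. Microglia are resident macrophages of the brain. They were drawn from forebrain with magnetic beads against CD11b, a surface protein that other myeloid cells also carry. The cells were plated at 40000 to 80000 cells per well and treated for 6 h with 500 nM recombinant Hevin (a secreted astrocyte protein), with 50 ng/mL LPS (bacterial lipopolysaccharide), or with added Media only. Each of the 3 groups held 4 libraries numbered 1 to 4, and the column headers tie libraries of the same number to one another. The labels do not say whether the numbers stand for separate animals or cultures. The p-values therefore measure the spread between these libraries, which may be technical.

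Levels are FPKM, the reads of a gene scaled by its length and by library size, and are given in the order of library numbers 1 to 4. Depth was 18343996 to 27361665 reads in listed genes per library. Fold changes were taken on log2(FPKM + 1), so those of low genes are too small, and carry the standard error (SE) of a limma fit over all 12 libraries. P-values are limma's, adjusted by Benjamini-Hochberg over all genes tested, and a gene was called at an adjusted p under 0.05. All 10 microglia markers examined were listed, and their summed level was 1207 to 1808 FPKM in Hevin, 596 to 885 FPKM in LPS and 678 to 948 FPKM in Media. In these bulk libraries, fewer cells of a type and less RNA per cell cannot be told apart.

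The stretches before the RefSeq start sites of Cspg4 and Sdc4 are shown first, because these genes had the largest differences against Media among the 8. Cspg4 was higher in Hevin and lower in LPS than in Media, and Sdc4 was lower in Hevin and higher in LPS. Each is printed 5′ to 3′ on the strand of the gene, from RefSeq on GRCm38.p6, at chr9:56864854-56865032 on the plus strand for Cspg4 and at chr2:164443189-164443438 on the minus strand for Sdc4. The Cspg4 stretch is 179 bases long and stops at the first annotated exon of the gene, and the Sdc4 stretch is 250 bases long. The Sdc4 stretch lies before the RefSeq start of Sdc4 but inside the longer span that GENCODE gives the gene, outside its annotated exons. Capitals mark matches to the GC box GGGCGG or to the NF-kB consensus, searched on both strands.
Cspg4: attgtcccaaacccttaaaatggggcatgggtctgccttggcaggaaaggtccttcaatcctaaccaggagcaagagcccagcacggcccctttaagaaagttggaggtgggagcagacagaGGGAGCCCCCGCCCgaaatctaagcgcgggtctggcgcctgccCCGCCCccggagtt
Sdc4: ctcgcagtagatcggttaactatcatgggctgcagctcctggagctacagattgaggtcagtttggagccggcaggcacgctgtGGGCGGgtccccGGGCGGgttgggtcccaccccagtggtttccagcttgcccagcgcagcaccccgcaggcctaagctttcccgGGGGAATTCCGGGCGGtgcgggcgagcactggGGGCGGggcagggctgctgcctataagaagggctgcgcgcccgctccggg
The NF-kB match of Cspg4 overlapped a GC box, and that of Sdc4 ended right before one. Over the 250 bases before the RefSeq start, 3 of the 8 genes held an NF-kB match (Cspg4, Sdc1 and Sdc4), against 7.25% of 32851 such windows. A GC box was held by 6 of the 8, all but Cd44 and Srgn, against 32.7% of windows. The AP-1 motif TGANTCA was in 0 of the 8, against 6.75% of windows. These letter matches describe the windows only and show no bound factor.

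Cspg4 lies at chr9:56865033-56899870 on the plus strand (GRCm38) and stood apart in Hevin. Its level was 14.3, 12.1, 25.3 and 28.6 FPKM in the Hevin libraries. In LPS it was 0.891, 0.555, 1.18 and 1.30 FPKM. In Media it was 1.605, 1.75, 3.38 and 4.13 FPKM. The lowest Hevin library lay above the highest Media library, and every LPS library lay below every Media library. These levels rest on 2240 to 6488 reads per library in Hevin, 94 to 232 in LPS and 273 to 939 in Media.

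The Cspg4 mean was 20.1 ± 8.10 FPKM in Hevin, 0.981 ± 0.332 FPKM in LPS and 2.72 ± 1.24 FPKM in Media (SD, n = 4 each). Hevin over Media gave a ratio of means of 7.38, which corresponds to the difference that picked the gene. Taken within each number, that ratio ran only from 6.91 to 8.88, while the level itself varied more among libraries of a group. Numbers 3 and 4 were higher than numbers 1 and 2 in each of the 3 groups. Hevin over LPS gave a ratio of means of 20.5, and 16.0 to 22.0 within numbers. On the log2 scale the differences were 2.48 for Hevin against Media and 3.34 for Hevin against LPS.

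LPS against Media was not used in picking Cspg4, though it rests on the same 4 Media libraries. Cspg4 fell with LPS to 0.361 of its Media mean, and it was lower in 4 of 4 numbers (log2 fold change -0.86 ± 0.29 SE, limma adjusted p = 0.0458). With the number as a block the adjusted p was 0.00029. The call without the block is close to the threshold and ended in 10 of 22 alternatives, with adjusted p up to 0.208. Leaving out any LPS library ended it, at adjusted p = 0.0805, 0.107, 0.0671 and 0.0606 for numbers 1 to 4, as did leaving out Media 3 (adjusted p = 0.11) or Media 4 (adjusted p = 0.133).

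Cspg4 is also a marker of other brain cells, so their markers are set beside it. The summed level of 10 oligodendrocyte precursor markers, without Cspg4, was 3.00 to 13.9 FPKM in Hevin, 3.97 to 23.1 FPKM in LPS and 3.15 to 19.8 FPKM in Media. None of the 5 tested was called in Hevin against Media, where 2 of the 10 stayed below 1 FPKM in every library. The summed level of 10 pericyte and smooth muscle markers was 20.4 to 50.7 FPKM in Hevin, 28.1 to 53.9 FPKM in LPS and 28.7 to 55.2 FPKM in Media. Of the 6 tested, 0 were higher and 1, Anpep, was lower in Hevin against Media. The same counts held in LPS against Media, again with Anpep lower (log2 fold change -0.87, limma adjusted p = 0.000554). With the replicate block, 1 precursor marker of 5 and 1 pericyte marker of 6 were called higher in LPS against Media (21.5% of all genes). Anpep alone gave 7.87 to 21.1 FPKM of these sums. The groups overlapped in both sums. By number, the precursor sum was 3.12 to 3.97 FPKM in number 1 and 3.00 to 5.47 FPKM in number 2. It was 13.9 to 23.1 FPKM in number 3 and 6.54 to 10.53 FPKM in number 4. Like Cspg4, it was thus higher in numbers 3 and 4, but Cspg4 was highest in number 4 of every group. The pericyte sum was 20.4 to 28.7 FPKM in number 1 and 33.7 to 45.4 FPKM in number 2. It was 50.7 to 55.2 FPKM in number 3 and 36.5 to 48.1 FPKM in number 4. The part of these cells in the Cspg4 level was not tested. Of 10 microglia markers, 5 were called higher and 0 lower in Hevin against Media, where 4.27% of all genes tested were called higher and 3.10% lower. In LPS against Media 0 were higher and 2 lower, against 13.2% and 12.6% of all genes. With the replicate block the counts were 8 higher and 0 lower in Hevin (10.8% and 10.6% of all genes), and 1 higher and 3 lower in LPS (21.5% and 22.2%). The part of microglia RNA in the Cspg4 level was not tested either.

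**Figure D1:**
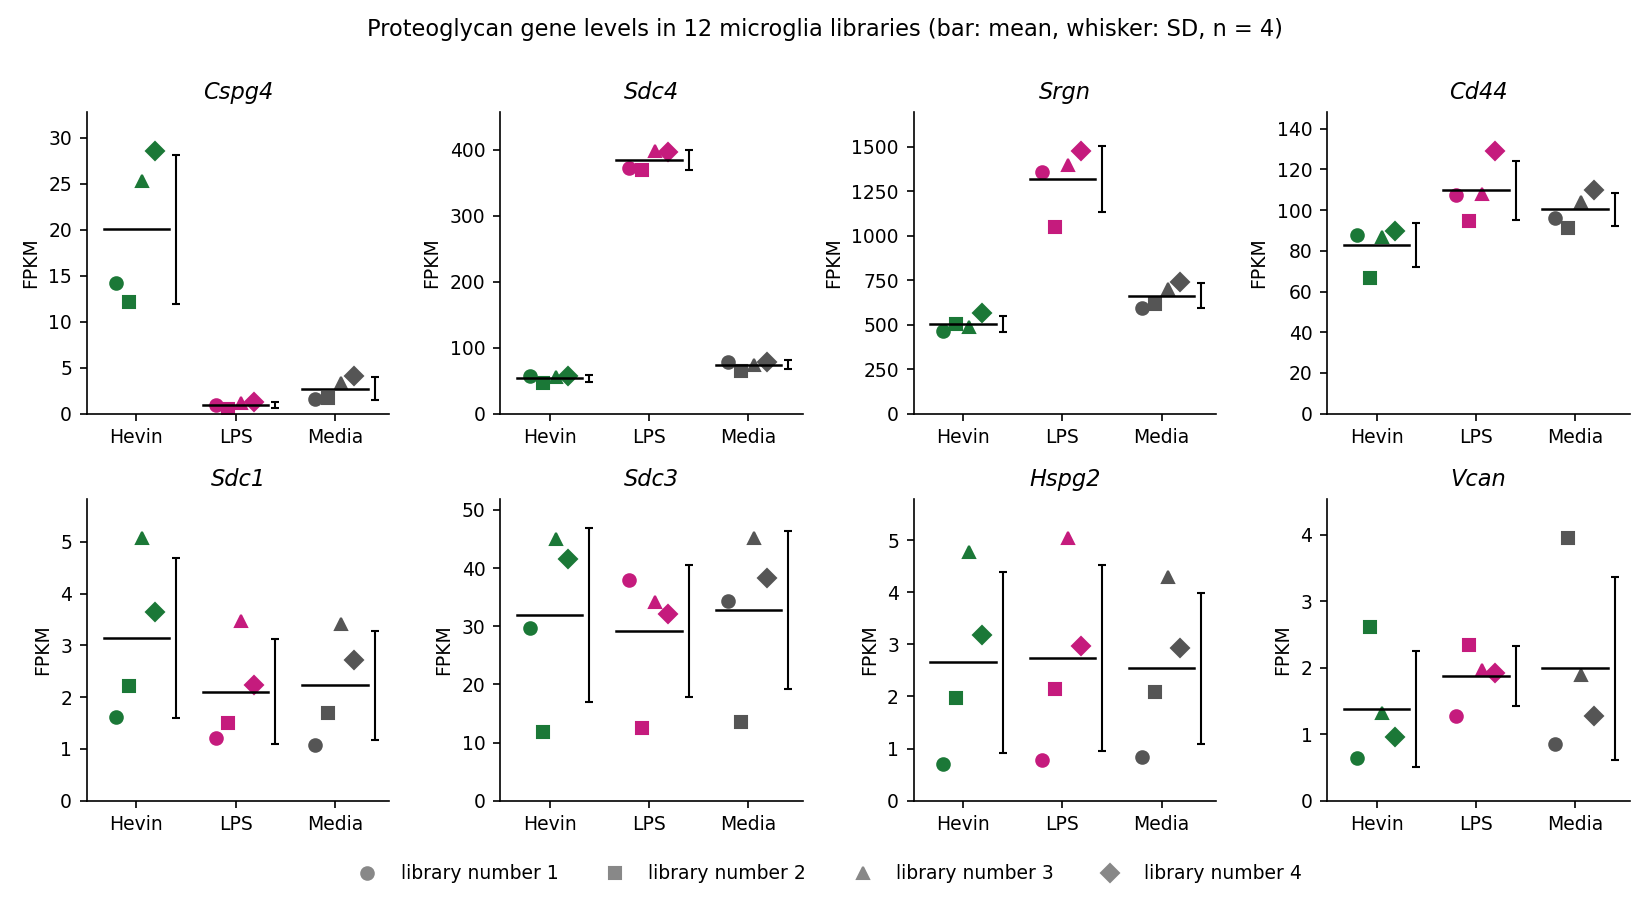
FPKM of the 8 genes in each of 12 microglia libraries, by treatment (Hevin, LPS, Media), with symbols for library numbers 1 to 4, bars for means and whiskers for SD (n = 4). Cspg4 is highest in the 4 Hevin libraries (12.1 to 28.6 FPKM), Sdc4 and Srgn are highest in the 4 LPS libraries, and Sdc1, Sdc3, Hspg2 and Vcan differ more by number than by treatment.

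Of the syndecans, Sdc4 changed in all 3 comparisons. Sdc4 (chr2:164424247-164443887, minus strand) encodes a syndecan of focal adhesions that binds protein kinase C. Its level was 57.2, 46.2, 55.9 and 56.8 FPKM in Hevin, 373, 369, 399 and 396 FPKM in LPS, and 78.4, 64.1, 74.5 and 78.7 FPKM in Media. No groups overlapped: every Hevin library lay below every Media library, and every LPS library lay far above both.

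The Sdc4 mean was 384 ± 15.3 FPKM in LPS and 73.9 ± 6.84 FPKM in Media (SD, n = 4 each), a ratio of 5.20, with 4.76 to 5.76 within numbers. This rise passed the test (log2 fold change 2.37 ± 0.09 SE, limma adjusted p = 1.75e-08). In Hevin the mean was 54.0 ± 5.26 FPKM, lower than in Media in 4 of 4 numbers (log2 fold change -0.45 ± 0.09 SE, limma adjusted p = 0.0111). Hevin against LPS gave a log2 fold change of -2.81 ± 0.09 SE (limma adjusted p = 2.71e-09). Each of these 3 calls held in all 22 alternatives.

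Sdc1 (chr12:8771323-8793715, plus strand) encodes the syndecan typical of epithelial and plasma cells. Its level was 1.63, 2.21, 5.08 and 3.64 FPKM in Hevin, 1.21, 1.51, 3.48 and 2.24 FPKM in LPS, and 1.08, 1.69, 3.42 and 2.72 FPKM in Media. The groups overlapped, and in each of them number 3 was highest and number 1 lowest. Within numbers, Hevin over Media was 1.31 to 1.51, higher in 4 of 4. Hevin against Media missed the threshold (log2 fold change 0.34 ± 0.31 SE, limma adjusted p = 0.623), and with the replicate block the adjusted p was 0.0175. The log2 fold change was 0.13 without Hevin 3, 0.15 without Media 1, 0.51 without Media 3 and 0.54 without Hevin 1. Hevin against LPS likewise had an adjusted p of 0.344, and 0.00286 with the block. In LPS against Media the log2 fold change was -0.05 ± 0.31 SE (limma adjusted p = 0.937).

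Sdc3 (chr4:130792537-130826319, plus strand) encodes the syndecan most studied in neurons. It had 29.7, 11.8, 44.9 and 41.5 FPKM in Hevin, 37.96, 12.5, 34.2 and 32.2 FPKM in LPS, and 34.3, 13.5, 45.2 and 38.2 FPKM in Media. Number 2 was the lowest library of every group. The log2 fold change was -0.07 ± 0.47 SE in Hevin against Media (limma adjusted p = 0.965) and -0.15 ± 0.47 SE in LPS against Media (limma adjusted p = 0.859). Without the block, these errors leave room for sizeable changes in either direction. With the replicate block the SE was 0.11 and neither was called (limma adjusted p = 0.711 and 0.3). Within numbers, the ratio to Media was 0.866 to 1.09 in Hevin and 0.756 to 1.11 in LPS. Sdc3 exons share 48 bases with Gm12970 and 415 bases with Gm26716 on the opposite strand, and the use of strand in counting is not stated by the labels. Its separate value is therefore uncertain.

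Cd44 (chr2:102811141-102901665, minus strand) encodes the hyaluronan receptor, which in some spliced forms carries chondroitin or heparan sulfate. Its level was 87.8, 66.4, 87.0 and 89.8 FPKM in Hevin, 107, 94.5, 108 and 129 FPKM in LPS, and 96.2, 91.2, 104 and 109.9 FPKM in Media. Every Hevin library lay below every library of the other groups, and LPS and Media overlapped. The means were 82.7 ± 10.9 FPKM in Hevin, 109.7 ± 14.3 FPKM in LPS and 100.3 ± 8.28 FPKM in Media (SD, n = 4 each). Splice forms cannot be told apart in these gene totals.

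Cd44 fell in Hevin against LPS (log2 fold change -0.40 ± 0.12 SE, limma adjusted p = 0.0171), lower in 4 of 4 numbers. That call ended without LPS 4 (-0.32, limma adjusted p = 0.0512) and without the scaling factors held in FPKM (-0.05, adjusted p = 0.776). Under quantile normalization the sign turned (0.02, adjusted p = 0.896). Hevin against Media had a log2 fold change of -0.28 ± 0.12 SE, also lower in 4 of 4 numbers, and missed the threshold (limma adjusted p = 0.2). With the replicate block its adjusted p was 0.011, and without Hevin 2 the log2 fold change was -0.18 (adjusted p = 0.41). LPS against Media had a log2 fold change of 0.12 ± 0.12 SE (limma adjusted p = 0.501), and it was below 0 without scaling factors (-0.20) and under quantile normalization (-0.28).

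Srgn (chr10:62493833-62527451, minus strand), which encodes serglycin, was the highest of the 8 genes in every library. Its level was 462, 505, 488 and 567 FPKM in Hevin, 1359, 1049, 1394 and 1476 FPKM in LPS, and 591, 615, 700.4 and 741 FPKM in Media. The 3 groups did not overlap, with LPS highest and Hevin lowest. The means were 506 ± 44.9 FPKM in Hevin, 1319 ± 187 FPKM in LPS and 662 ± 70.4 FPKM in Media (SD, n = 4 each).

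Srgn rose with LPS to 1.99 of its Media mean (log2 fold change 0.99 ± 0.12 SE, limma adjusted p = 0.000113), higher in 4 of 4 numbers. Without scaling factors the rise was 0.66 (adjusted p = 0.00223), and under quantile normalization it was 0.13 and no longer called (adjusted p = 0.442). In Hevin against LPS it fell (log2 fold change -1.37 ± 0.12 SE, limma adjusted p = 3.75e-06). In Hevin against Media it was lower in 4 of 4 numbers but missed the threshold (log2 fold change -0.39 ± 0.12 SE, limma adjusted p = 0.0777). The adjusted p was 0.00765 with the replicate block, 0.0494 in a fit of only both groups and 0.0308 without LPS 2.

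**Figure D2:**
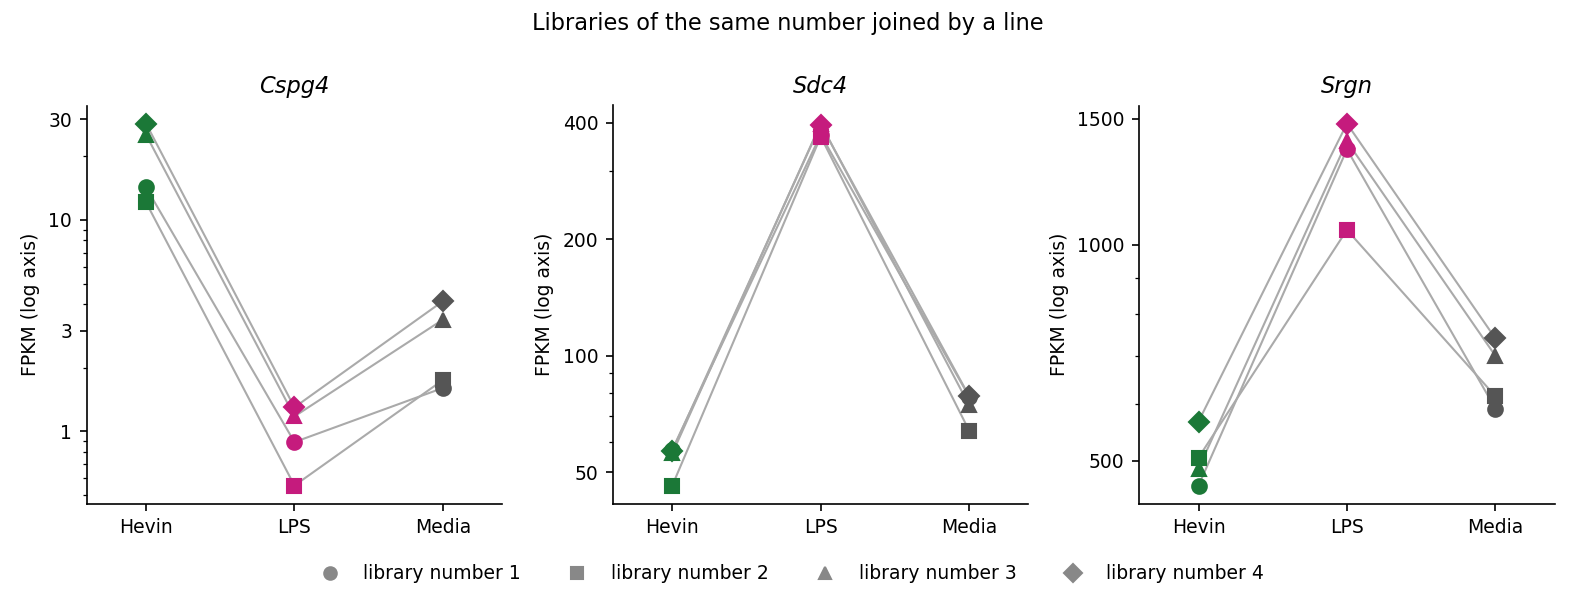
FPKM of Cspg4, Sdc4 and Srgn on a log axis in Hevin, LPS and Media, with a line for each library number from 1 to 4. For each number Cspg4 runs high in Hevin and low in LPS, while Sdc4 and Srgn run highest in LPS and lowest in Hevin.

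The matrix genes were low. Vcan (chr13:89655312-89742509, minus strand), which encodes versican, a hyaluronan-binding chondroitin sulfate proteoglycan, had 0.637, 2.62, 1.32 and 0.955 FPKM in Hevin, 1.27, 2.35, 1.96 and 1.92 FPKM in LPS, and 0.849, 3.96, 1.89 and 1.28 FPKM in Media. Number 2 was highest in every group. Hevin over Media was 0.662 to 0.751 within numbers, lower in 4 of 4, without passing the test (log2 fold change -0.29 ± 0.30 SE, limma adjusted p = 0.671, and 0.168 with the replicate block). That value was -0.01 without Media 2 and -0.51 without Hevin 2, the ends of its range when 1 library was left out. LPS against Media had a log2 fold change of 0.03 ± 0.30 SE (limma adjusted p = 0.959).

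Hspg2 (chr4:137468769-137570630, plus strand) encodes perlecan, the large heparan sulfate proteoglycan of basement membranes. It had 0.701, 1.98, 4.77 and 3.17 FPKM in Hevin, 0.774, 2.14, 5.04 and 2.97 FPKM in LPS, and 0.837, 2.09, 4.29 and 2.93 FPKM in Media. Number 1 was lowest and number 3 highest in every group, and the groups overlapped throughout. The log2 fold change was 0.01 ± 0.44 SE in Hevin against Media (limma adjusted p = 0.993) and 0.04 ± 0.44 SE in LPS against Media (limma adjusted p = 0.96). With the replicate block the SE was 0.08 and neither was called (adjusted p = 0.942 and adjusted p = 0.701).

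Of the 7 genes that Cspg4 leaves, 1 was called in Hevin against Media (Sdc4, lower), where 7.37% of all genes tested were called, 4.27% higher and 3.10% lower. For LPS against Media, 3 of 8 were called, with Sdc4 and Srgn higher and Cspg4 lower, against 25.8% of all genes, 13.2% higher and 12.6% lower. In Hevin against LPS, 3 of 7 were called, with Sdc4, Srgn and Cd44 lower, against 41.7% of all genes. The members' share in that last comparison was near that of all genes. With the replicate block, 4 of 7 were called in Hevin against Media, with Sdc4, Srgn and Cd44 lower and Sdc1 higher, against 21.4% of all genes. Also with the block, 3 of 8 were called in LPS against Media (background 43.7%) and 4 of 7 in Hevin against LPS, where Sdc1 was added as higher (background 57.9%, with 29.9% higher and 28.0% lower). Libraries of Hevin and Media did not overlap for 3 of the 7 (Sdc4, Srgn and Cd44), against 16.6% of all genes, and the same 3 did not overlap between Hevin and LPS, against 37.5% of all genes.

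**Figure D3:**
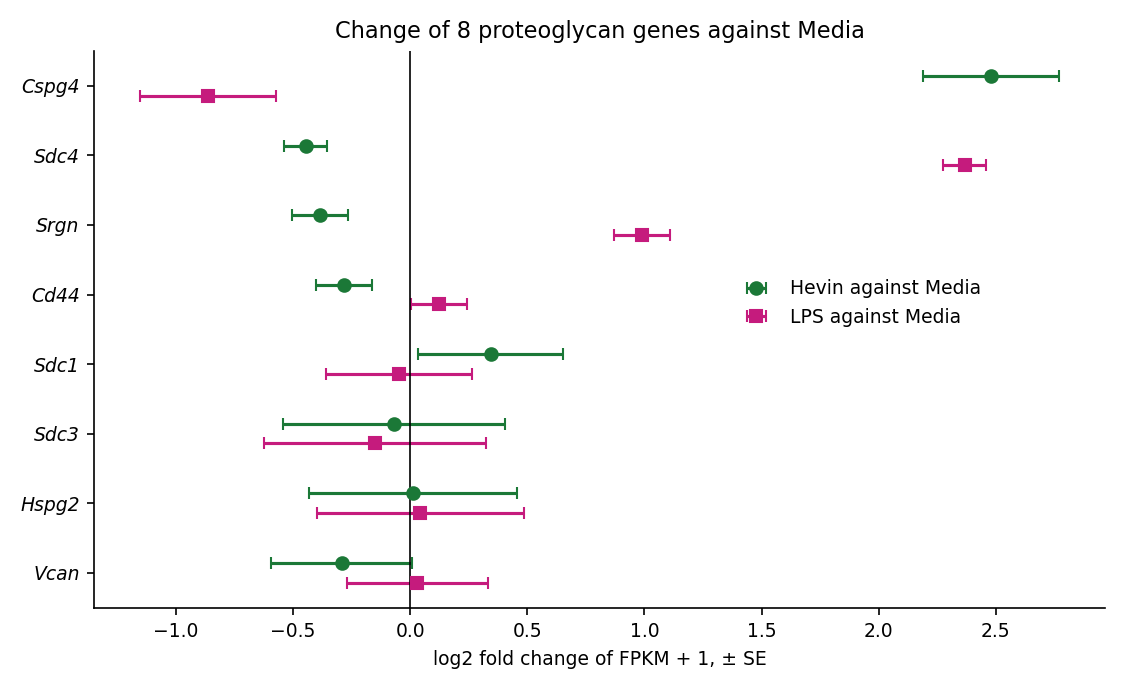
log2 fold change of FPKM + 1 with SE for the 8 genes, in Hevin against Media (circles) and LPS against Media (squares). Cspg4 lies at 2.48 in Hevin and -0.86 in LPS, and Sdc4 at -0.45 in Hevin and 2.37 in LPS. The 4 genes at the bottom have intervals of 1 SE that reach or nearly reach 0. These SE are without the replicate block, with which the SE of Sdc1 in Hevin against Media was 0.087.

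Both comparisons of the figure share the same 4 Media libraries. In level per length, the Hevin libraries had the means ordered Srgn, Cd44, Sdc4, Sdc3, Cspg4, Sdc1, Hspg2 and Vcan, from high to low. Sdc3 and Cspg4 overlapped there, as did Sdc1, Hspg2 and Vcan. In LPS, Sdc4 stood above Cd44 with no overlap, and Hspg2, Sdc1, Vcan and Cspg4, which came last, overlapped. In Media the order of the first 5 was as in Hevin, and Cspg4, Hspg2, Sdc1 and Vcan overlapped.

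The 8 genes split by what their values followed. Treatment took 99.3% of the variance of log2(FPKM + 1) in Sdc4, 93.9% in Srgn and 92.7% in Cspg4, the last of which was picked for this. Library number took 99.3% in Hspg2, 95.5% in Sdc3, 84.3% in Sdc1 and 76.3% in Vcan. Cd44 lay between, with 56.4% for treatment and 37.0% for number. Over all genes tested the medians were 45.3% for treatment and 27.9% for number.

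Markers of other cells also differed by number. The summed level of 8 endothelial markers was 34.7 to 38.2 FPKM in number 1, 79.2 to 97.2 FPKM in number 2, 175 to 191 FPKM in number 3 and 112 to 127 FPKM in number 4. Hspg2 and Sdc1 were ordered by number in the same way in every group. By treatment the endothelial sums overlapped, at 38.2 to 177 FPKM in Hevin, 34.7 to 191 FPKM in LPS and 38.1 to 175 FPKM in Media. Some other lists had the same order by number. The summed level of 7 fibroblast markers was 1.85 to 2.38 FPKM in number 1 and 2.97 to 5.23 FPKM in number 2. It was 10.6 to 14.5 FPKM in number 3 and 6.57 to 9.37 FPKM in number 4. For 6 astrocyte markers, without Gja1, it was 2.50 to 2.93 FPKM in number 1 and 3.87 to 4.66 FPKM in number 2. It was 14.6 to 19.5 FPKM in number 3 and 9.63 to 11.9 FPKM in number 4. The part of endothelial or other such RNA in the levels of Hspg2 and Sdc1 was not tested.

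The summed level of 7 monocyte and neutrophil markers was 1486 to 1575 FPKM in number 2, against 51.3 to 76.2 FPKM in number 1, 31.6 to 93.3 FPKM in number 3 and 43.1 to 95.2 FPKM in number 4. Number 2 was also where Vcan was highest and Sdc3 lowest. The part of these cells in either gene was not tested. By the mean over all 12 libraries, S100a9 was the highest gene of that list, Cdh5 of the endothelial, Ptprz1 of the oligodendrocyte precursor and Anpep of the pericyte list. For some of these lists another gene was highest in a single group or library. Without the 3 libraries of number 2, Sdc4 was still called in Hevin against Media, and Sdc4 and Srgn in LPS against Media, while Cspg4 in LPS against Media had an adjusted p of 0.0621 by limma.

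The summed level of 7 fibroblast markers was 1.85 to 11.2 FPKM in Hevin, 2.38 to 14.5 FPKM in LPS and 2.20 to 10.6 FPKM in Media. The sum of 7 astrocyte markers was 22.5 to 48.6 FPKM in Hevin, 114 to 237 FPKM in LPS and 52.3 to 89.2 FPKM in Media, in the same order of groups as Sdc4 and Srgn. Most of it was Gja1, and without Gja1 it was 2.50 to 15.4 FPKM in Hevin, 2.93 to 19.5 FPKM in LPS and 2.75 to 14.6 FPKM in Media, with overlap. The sum of 7 border macrophage markers, with Pf4 highest in the mean of each group, was 615 to 818 FPKM in Hevin, 689 to 854 FPKM in LPS and 810.2 to 944 FPKM in Media.

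**Figure D4:**
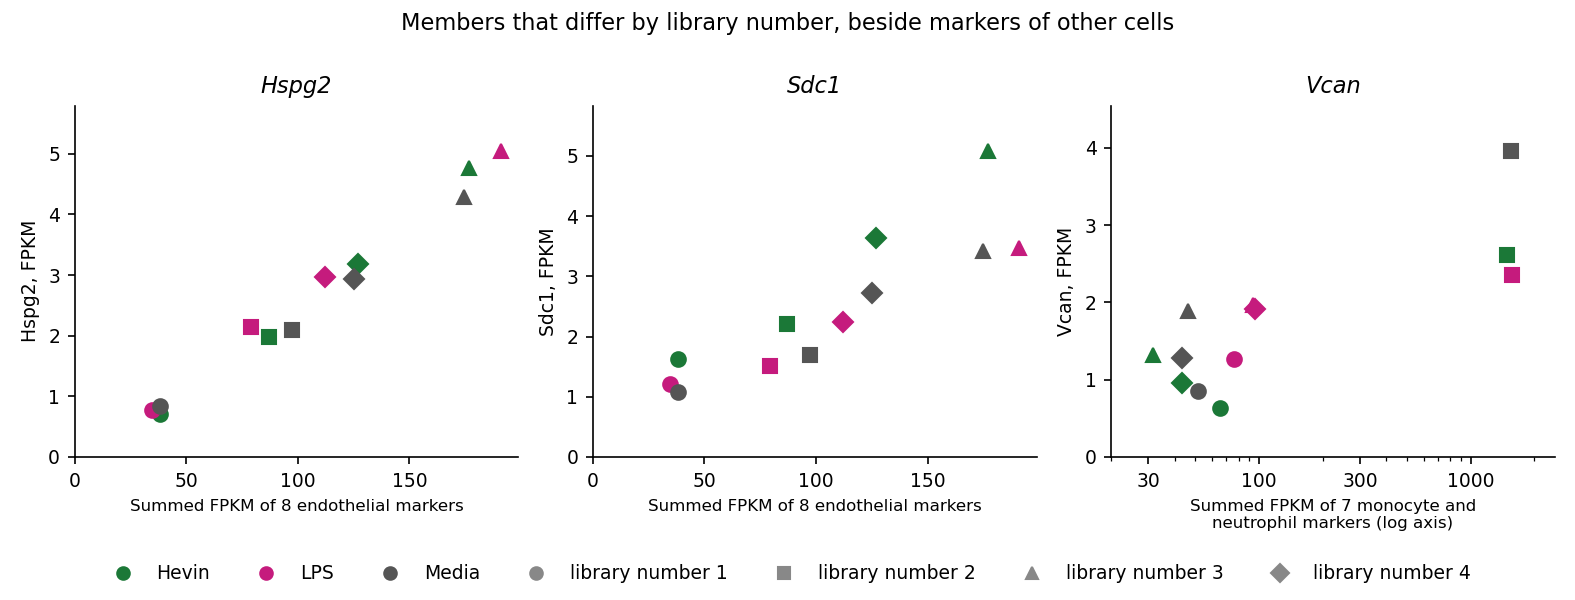
Hspg2 and Sdc1 (FPKM) against the summed FPKM of 8 endothelial markers, and Vcan (FPKM) against the summed FPKM of 7 monocyte and neutrophil markers on a log axis, 1 point per library, with colours for treatment and symbols for number. Points of the same number lie together: endothelial sums run from 34.7 to 191 FPKM by number, and number 2 stands apart at 1486 to 1575 FPKM in the last panel.

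Genes that build, edit, bind or cut proteoglycans were counted in lists chosen with results of these data known. Over all genes tested, the median log2 fold change was near 0 in Hevin against Media (2.00e-04) and -0.024 in LPS against Media. The list counts stand beside 4.27% of all genes higher and 3.10% lower in Hevin, and 13.2% higher and 12.6% lower in LPS. With the replicate block these shares were 10.8% and 10.6% in Hevin, and 21.5% and 22.2% in LPS. Levels of these genes are means with the SD of 4 libraries.

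The linker and sulfate donor list had 13 genes, of which 11 were tested. In Hevin against Media, 2 were higher and 0 lower (all genes 4.27% and 3.10%). B4galt7, which adds the first galactose of the linker, had 39.7 ± 2.56 FPKM in Hevin, 13.3 ± 1.66 FPKM in LPS and 20.2 ± 1.54 FPKM in Media. It rose with Hevin (log2 fold change 0.94 ± 0.10 SE, limma adjusted p = 0.000115) and fell with LPS (limma adjusted p = 0.00126). Xylt1, a xylosyltransferase that starts the chain, had 8.32 ± 1.29 FPKM in Hevin, 2.37 ± 0.163 FPKM in LPS and 4.38 ± 1.37 FPKM in Media, with limma adjusted p = 0.00799 in Hevin and 0.0108 in LPS against Media. Its paralog Xylt2 rose with LPS, to 12.4 ± 2.46 FPKM against 6.84 ± 0.905 FPKM in Media (limma adjusted p = 0.00179). With LPS 1 was thus higher and 2 were lower. The list's median log2 fold change was 0.16 in Hevin and -0.22 in LPS. With the replicate block the counts were 4 higher and 0 lower in Hevin, and 3 higher and 5 lower in LPS.

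Of 16 genes of chondroitin and dermatan sulfate synthesis, 13 were tested. Against Media, 1 was higher and 0 lower with Hevin. The higher one was Chst3, a chondroitin sulfotransferase, at 2.57 ± 0.431 FPKM in Hevin and 0.747 ± 0.268 FPKM in Media (log2 fold change 1.04, limma adjusted p = 0.000869). Chst3 passed the filter of 1 FPKM in 4 libraries only through Hevin, where it was high, with at most 0.614 FPKM in LPS. Its call held in all 22 alternatives, which include a fit with no filter. With LPS, 1 gene was higher and 2 were lower. Chst12, another chondroitin sulfotransferase, was at 4.58 ± 1.57 FPKM in LPS and 10.9 ± 2.01 FPKM in Media (limma adjusted p = 0.00141). Chst14, the dermatan sulfotransferase, was lower too (limma adjusted p = 0.0069), and Chst7 was higher (limma adjusted p = 0.0318), a call that ended in 8 of 22 alternatives. Chst7 needed its LPS libraries to pass the filter, with at most 0.934 FPKM in Hevin and 1.04 FPKM in Media. The median was -0.02 in Hevin and 0.07 in LPS. With the block there were 1 higher and 1 lower in Hevin, and 2 higher and 4 lower in LPS.

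Of 21 genes of heparan sulfate synthesis and editing, 12 were tested, with 2 higher and 0 lower in Hevin against Media. Extl3, which starts heparan sulfate on the linker, had 44.4 ± 5.56 FPKM in Hevin and 19.3 ± 2.87 FPKM in Media (log2 fold change 1.16, limma adjusted p = 0.000413). Sulf2, a secreted enzyme that removes sulfate groups from heparan sulfate, had 10.8 ± 2.14 FPKM in Hevin and 4.50 ± 0.860 FPKM in Media (log2 fold change 1.10, limma adjusted p = 0.00181). In LPS against Media 1 was higher and 1 lower, and both encode the chain polymerase. Ext1 had 61.4 ± 10.98 FPKM in LPS and 36.3 ± 10.7 FPKM in Media (limma adjusted p = 0.0117). Ext2 had 2.93 ± 0.723 FPKM in LPS and 4.66 ± 0.827 FPKM in Media (limma adjusted p = 0.0314), a call that ended in 8 of 22 alternatives. The median was 0.0084 in Hevin and -0.21 in LPS. With the block there were 2 higher and 3 lower in Hevin, and 1 higher and 5 lower in LPS.

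The hyaluronan list had 10 of 13 genes tested. Has1, a hyaluronan synthase, had 15.9 ± 7.92 FPKM in LPS and 0.575 ± 0.227 FPKM in Media (log2 fold change 3.29, limma adjusted p = 1.26e-05). Has1 passed the filter of 1 FPKM in 4 libraries only through LPS, where it was high, with a mean of 0.790 FPKM in Hevin. Its call held in all 22 alternatives, which include a fit with no filter. Tmem2, which encodes a cell surface protein described as a hyaluronidase, had 30.1 ± 8.88 FPKM in LPS and 5.46 ± 0.636 FPKM in Media (log2 fold change 2.23, limma adjusted p = 5.51e-06). Hyal2, a hyaluronidase, fell with LPS (log2 fold change -0.44, limma adjusted p = 0.0032). In all, 3 were higher and 3 lower in LPS against Media. The 1 gene called in Hevin against Media was Stab1, which encodes a scavenger receptor. It had 68.0 ± 9.90 FPKM in Hevin and 44.1 ± 3.46 FPKM in Media (limma adjusted p = 0.0224), and the call ended without Hevin 4, Media 1 or Media 3. The median was 0.098 in Hevin and -0.30 in LPS. With the block there were 1 higher and 1 lower in Hevin, and 4 higher and 5 lower in LPS.

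All 14 partners of CD44 and syndecans were tested. In Hevin against Media 1 was higher and 0 lower: Itgb5, an integrin subunit that binds vitronectin, with 38.7 ± 4.07 FPKM in Hevin and 11.2 ± 1.41 FPKM in Media (log2 fold change 1.71, limma adjusted p = 5.13e-06). LPS gave 3 higher and 2 lower against Media. Ezr, which encodes ezrin, a link between the CD44 tail and actin, had 286 ± 43.2 FPKM in LPS and 47.2 ± 5.47 FPKM in Media (log2 fold change 2.57, limma adjusted p = 4.06e-07). Sdcbp, which encodes syntenin, a binder of syndecan tails, had 582 ± 73.0 FPKM in LPS and 393 ± 29.5 FPKM in Media (limma adjusted p = 0.00307, and 0.996 under quantile normalization). Prkca, a protein kinase C that works with syndecan-4, had 2.29 ± 0.144 FPKM in LPS and 1.55 ± 0.131 FPKM in Media (limma adjusted p = 0.0122, and 0.187 without scaling factors). The median was 0.11 in Hevin and 0.16 in LPS. With the block there were 5 higher and 0 lower in Hevin, and 5 higher and 2 lower in LPS.

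Of 14 shedding enzymes, 13 were tested, and in LPS against Media 5 were higher and 1 lower (all genes 13.2% and 12.6%). Mmp13, a collagenase, had 10.9 ± 4.22 FPKM in Hevin, 516 ± 72.2 FPKM in LPS and 34.3 ± 7.83 FPKM in Media. It rose with LPS (log2 fold change 3.89, limma adjusted p = 3.71e-07) and fell with Hevin (log2 fold change -1.62, limma adjusted p = 0.00113). Mmp14, a membrane-bound metalloproteinase that can cut CD44, had 168 ± 28.4 FPKM in LPS and 17.9 ± 4.85 FPKM in Media (log2 fold change 3.19, limma adjusted p = 1.09e-06). Adam17, a sheddase of syndecans, had 83.6 ± 4.62 FPKM in Hevin, 106.6 ± 4.28 FPKM in LPS and 66.1 ± 8.07 FPKM in Media. It was called higher in LPS (limma adjusted p = 0.000241) and in Hevin (limma adjusted p = 0.0462), the second of which ended in 15 of 22 alternatives. With Hevin 1 was thus higher and 1 lower. The median was -0.15 in Hevin and 0.32 in LPS. With the block there were 2 higher and 5 lower in Hevin, and 9 higher and 1 lower in LPS (all genes 21.5% and 22.2%).

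Of 26 other proteoglycan core proteins, 19 were tested. In Hevin against Media 0 were higher and 1 lower: Nrp1, a receptor for semaphorins and growth factors, with 84.2 ± 9.75 FPKM in Hevin, 52.2 ± 10.9 FPKM in LPS and 124.9 ± 11.5 FPKM in Media. With Hevin its log2 fold change was -0.57 (limma adjusted p = 0.0299), a fall that ended in 7 of 22 alternatives, among them leaving out Hevin 2, 3 or 4, Media 1, 3 or 4, or all of number 2. In LPS against Media Nrp1 was also lower (log2 fold change -1.26, limma adjusted p = 5.74e-05), and 1 gene was higher. That was Agrn, which encodes agrin, with 24.5 ± 3.67 FPKM in LPS and 10.4 ± 2.04 FPKM in Media (limma adjusted p = 0.00141). The median was -0.10 in Hevin and 0.16 in LPS. With the block there were 1 higher and 3 lower in Hevin, and 3 higher and 2 lower in LPS.

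**Figure D5:**
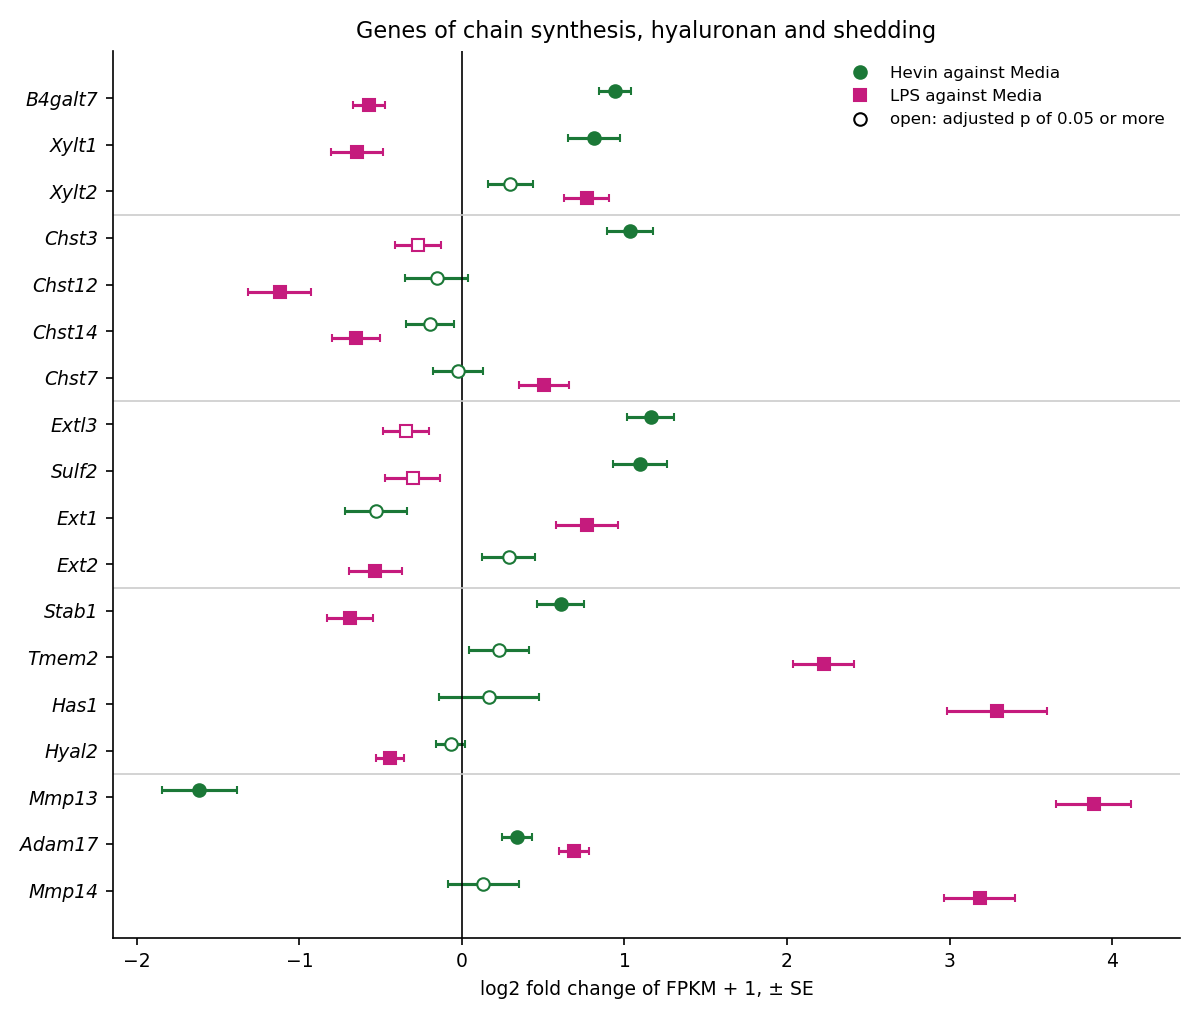
log2 fold change of FPKM + 1 with SE for 18 genes of linker, chondroitin sulfate, heparan sulfate, hyaluronan and shedding lists (from top to bottom, parted by lines), in Hevin against Media (circles) and LPS against Media (squares), with open symbols at an adjusted p of 0.05 or more. B4galt7, Xylt1, Chst3, Extl3 and Sulf2 lie above 0 in Hevin, and Mmp13, Has1, Mmp14 and Tmem2 lie above 2 in LPS.

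In Hevin against LPS, the counts by list were 5 higher and 1 lower of 11 for the linker list, 3 higher and 2 lower of 13 for chondroitin and dermatan sulfate, and 4 higher and 1 lower of 12 for heparan sulfate. They were 4 higher and 4 lower of 10 for hyaluronan, 4 higher and 4 lower of 14 for partners, 1 higher and 6 lower of 13 for shedding enzymes, and 2 higher and 2 lower of 19 for other core proteins. Over all genes 22.0% were called higher and 19.7% lower. The counts with the replicate block were 5 higher and 2 lower for the linker list, 4 and 4 for chondroitin and dermatan sulfate, and 4 and 1 for heparan sulfate. They were 5 higher and 4 lower for hyaluronan, 5 and 5 for partners, 2 and 8 for shedding enzymes, and 4 and 6 for other core proteins, against 29.9% higher and 28.0% lower over all genes. Mmp13 differed most among the named genes of these lists, at a log2 fold change of -5.50 (limma adjusted p = 9.78e-09).

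By Pearson's r of log2(FPKM + 1) over 12 libraries, the genes most like Cspg4 among 7625 compared were Tmbim1 (0.987), Cyb5r3 (0.980), Ctla2b (0.980), Creb3l2 (0.977) and Plekhg3 (0.977). Libraries of a group share a treatment and libraries of a number deviate together, so the 12 points are not independent. Treatment took 92.7% of the variance of Cspg4, so its ranking rests largely on the Hevin values that picked it. Creb3l2 and Plekhg3 reached a mean of 5 FPKM only in Hevin. Tmbim1 had 199 ± 27.2 FPKM in Hevin, 65.9 ± 11.4 FPKM in LPS and 93.96 ± 11.8 FPKM in Media. Creb3l2, a transcription factor gene of the secretory pathway, had 14.4 ± 2.60 FPKM in Hevin, 2.59 ± 0.880 FPKM in LPS and 3.23 ± 0.678 FPKM in Media. Ctla2b is a close paralog of Ctla2a, so its separate value is uncertain. Those most like Cd44 were Sf3a1 (0.957), Arhgap31 (0.953), Sepw1 (0.922), Ube2m (0.912) and Pisd (0.910). Sf3a1, a splicing factor gene, had 14.04 ± 2.18 FPKM in Hevin, 19.1 ± 2.97 FPKM in LPS and 17.6 ± 1.26 FPKM in Media.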

How the data were processed

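Poly(A) RNA of 12 libraries was sequenced with a stranded kit as pairs of 100 base reads, per the labels' protocols. The submitters' processing notes name the build mm10 and, with no role or order, edgeR 3.30.3, R 4.0.0, Subread 1.6.3, featureCounts, Bowtie2 2.3.5.1, Trimmomatic 0.39 and FastQC 0.11.7. The authors deposited FPKM values by gene symbol in 1 table. Not given in the sources used here are the annotation and whether counting used strand. From the steps between values, whole reads were recovered in 14541 of 14541 rows. The tolerance was at most 0.1, and the largest deviation of these reads from a whole number was 0.000162. They gave depths of 18343996 to 27361665 and showed library scaling factors within FPKM of 1.02 to 1.16 in Hevin, 0.804 to 0.897 in LPS and 1.02 to 1.11 in Media. Depth counts listed genes only. A divisor shared by all values of a row is not seen by this recovery, so reads are known up to that divisor.

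Groups came from the sample titles. The filter kept genes at 1 FPKM or more in 4 or more libraries, and log2(FPKM + 1) was fitted with limma 3.58.1 (trend) in R 4.3.3 over all 12 libraries, with Benjamini-Hochberg adjustment over 11242 genes at 0.05. Deviations from group means correlated in all 12 same-numbered pairs (0.23 to 0.784), against a mean of -0.201 between numbers. Header labels also join the numbers, so the numbers pair the libraries. Values with the number as a block are given where they change a call of a member or move a printed count by over 1.5 times. Members and lists were chosen with earlier results of these data known. Up to 3 called genes per list and comparison, those with the smallest adjusted p, are named, and the 5 genes of highest r with Cspg4 and with Cd44 among those with a mean of at least 5 FPKM in 1 group. Alternatives were pseudocounts 0.1 and 5, no filter, no scaling factor, quantile normalization, limma-voom on recovered reads, the block, only both groups, and leaving out each library. Limma-voom with the block and leaving out number 2 were chosen after seeing the data. Recovery of reads was tested on simulated data. Gene positions and exons are from GENCODE M21 on GRCm38. Figures were drawn with matplotlib 3.10.9.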

Additional observations from a re-analysis of the deposited data

Results flagged for a closer look

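In each of 24 groups of 4 libraries (8 genes in 3 treatments), the gap of the highest or lowest library to the nearest other was set against the group's range, by Dixon's criterion. Chance flags about 1 in 20 groups, and 2 were found, both in the Hevin library numbered 2. Cd44 was 66.4 FPKM there, against 87.0 to 89.8 FPKM in the other Hevin libraries, a gap of 0.879 of the range. Sdc4 was 46.2 FPKM there, against 55.9 to 57.2 FPKM in the other Hevin libraries, a gap of 0.884 of the range. Number 2 was also the lowest library of LPS and of Media for both genes. Without this library, Sdc4 was called in Hevin against Media too, and the log2 fold change of Cd44, not called with it, was -0.18 (limma adjusted p = 0.41) against -0.28 with it.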

How the results depend on the processing

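The replicate block raised genes called to 2406 in Hevin against Media and 4914 in LPS against Media, and voom with the block to 2729 and 4957. Members called in Hevin against Media became 4 under both, and 2 in a fit of only both groups. Without scaling factors the median of all genes moved to -0.29 in LPS against Media and 0.32 in Hevin against LPS. The split was then 736 higher and 4990 lower (5726) in LPS against Media, against 1484 and 1413, and 5398 higher and 971 lower in Hevin against LPS, against 2470 and 2215. Quantile normalization left 1 member called in LPS against Media. Leaving out 1 library gave 511 (without Media 3; 532 without Hevin 4) to 930 genes in Hevin against Media, 2164 to 2869 in LPS against Media and 3865 to 4702 in Hevin against LPS, and 1 to 2, 2 to 3 and 2 to 3 members. Cspg4 moved to 1.65 with a pseudocount of 5 in Hevin against Media, and to 4.34 (voom), 4.35 (voom with the block), 4.19 (pseudocount 0.1) and 2.01 (pseudocount 5) in Hevin against LPS.

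Signs turned only where no call stood, except Cd44 in Hevin against LPS under quantile normalization (0.0235). In Hevin against Media, Hspg2 was -0.0095 (voom), -0.0111 (pseudocount 0.1) and -0.026 (quantile). In LPS against Media, Vcan was -0.0121 (voom with the block), -0.1747 (no scaling) and -0.0075 (pseudocount 5), Cd44 -0.2041 (no scaling) and -0.2803 (quantile), Sdc1 0.0334 (quantile) and Hspg2 -0.1727 (no scaling). In Hevin against LPS, Hspg2 was 0.2069 (no scaling). Leaving out 1 library, log2 fold changes ran from -0.4341 to 0.3356 for Sdc3 in Hevin against Media, -0.2702 to 0.3333 for Hspg2 in Hevin against Media, -0.1667 to 0.3075 for Vcan in LPS against Media, -0.241 to 0.1235 for Sdc1 in LPS against Media, -0.5151 to 0.2021 for Sdc3 in LPS against Media, -0.2373 to 0.357 for Hspg2 in LPS against Media, -0.2696 to 0.4841 for Sdc3 in Hevin against LPS and -0.3457 to 0.2892 for Hspg2 in Hevin against LPS. Each fit that left out 1 library took its number out of 1 group only. Leaving out all 3 libraries of number 2 gave -0.031 for Sdc3 and 0.0334 for Hspg2 in Hevin against Media. The cause of the turned signs and of these ranges was not tested.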
